A study of Mus musculus with 21 samples.

Results

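The Hox genes of clusters A to D were examined in EL4 cells, a mouse T lymphoma line of strain C57BL/6, with a hairpin against luciferase (shLuc, the control) or a hairpin against CTCF (shCTCF). All rows of the expression table whose symbol is Hox, a cluster letter and a number were taken, which gave 37 genes among 22119 rows. Cluster A held 9 of them, cluster B 10, cluster C 9 and cluster D 9. Hoxa3 and Hoxa11 were listed only in rows joined with an overlapping transcript (2700086A05Rik+Hoxa3 and Hoxa11+Hoxa11as), fall outside that rule and are given as neighbours. Each group had 2 libraries of poly(A) RNA, and 17 of the 21 samples of the series (chromatin contact maps, chromatin immunoprecipitation and EL4 RNA without a hairpin in its label) were not analysed here. The labels name no vector, selection or time after the hairpins and do not say whether the libraries came from separate cultures. P-values here therefore measure no more than how far these libraries lie apart, and that distance may be technical.

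Hox genes encode homeodomain transcription factors that give cells their position along the body axis. They lie in 4 clusters, and genes with the same number in different clusters are paralogs, descended from 1 ancestral gene. Low numbers stand at the end of a cluster that is active early and towards the head, and high numbers at the end that is active late and towards the tail. Polycomb complexes keep silent Hox genes repressed and Trithorax/MLL complexes keep active ones on. CTCF, a DNA-binding protein with zinc fingers, marks boundaries of chromatin domains and is known to bind between Hox genes at borders of active and silent chromatin. In blood, the genes of clusters A and B are best known from stem and progenitor cells and from leukaemia.

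Expression was given as RPKM, a read density that takes account of gene model length and of library depth, so levels can be compared between genes. On a 1 kb model, 1 read was worth 0.163 to 0.23 RPKM in the 4 libraries, and 3 reads 0.489 to 0.69 RPKM. A level of 0 in a library is therefore no more than a level below such a value. Ctcf stood at 49.0 and 50.9 RPKM with shLuc and at 26.5 and 26.4 RPKM with shCTCF, a fall of 0.89 on the log2 scale (SE 0.08, adjusted p = 0.0075, limma with Benjamini-Hochberg adjustment). All 12 T cell markers searched had a mean of 1 RPKM or more, and summed to 2732 to 2846 RPKM with shLuc and 2428 to 2463 RPKM with shCTCF. Of 5 stem and progenitor marker rows Flt3 alone reached 1 RPKM, while Gata2, Mecom and Procr were at 0. Those 5 rows summed to 3.82 to 4.00 RPKM with shLuc and 4.93 to 5.60 RPKM with shCTCF. B cell and myeloid markers summed to less than that in every library (2.83 to 2.97 and 2.40 to 3.63 RPKM with shLuc, 1.5 to 2.13 and 2.14 to 3.10 RPKM with shCTCF), with Ms4a1, Pax5, Cd14 and Elane at 0. Cd22 and Itgam were the only genes of these lists that reached 1 RPKM. Erythroid, embryonic stem cell, fibroblast and neural or epithelial markers each summed to at most 0.925 RPKM in any library. The part of these shifts in the Hox results was not tested. In bulk RNA, fewer cells with a transcript and less RNA per cell cannot be told apart.

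Hoxa10 and Hoxa13, genes at the tailward end of cluster A, were higher with shCTCF, at 1.89 and 1.86 times their shLuc means. Hoxd8, the Hox gene with the highest level in this line, was lower, at 0.548 of its shLuc mean. The other 15 tested Hox genes did not pass the test. Across all 9898 genes tested, 0.697% were called higher and 0.596% lower (1.29% in either direction), against 2 and 1 of the 18 Hox genes tested. The median log2 change of the 18 was 0.16, against 0.01 over all genes tested.

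The start sites of these 3 genes differ in base composition, and the bases upstream of each are shown for that reason. Each line holds the 250 bases before the annotated start, 5′ to 3′ on the gene's strand, from RefSeq on GRCm38.p6, with every CG dinucleotide in capitals. The Hoxd8 bases are chr2:74704365-74704614 on the plus strand, the Hoxa10 bases chr6:52240855-52241104 on the minus strand (the outer of its annotated starts), and the Hoxa13 bases chr6:52260881-52261130 on the minus strand. The expression table itself is on mm9, so these coordinates are not those of its rows.
Hoxd8: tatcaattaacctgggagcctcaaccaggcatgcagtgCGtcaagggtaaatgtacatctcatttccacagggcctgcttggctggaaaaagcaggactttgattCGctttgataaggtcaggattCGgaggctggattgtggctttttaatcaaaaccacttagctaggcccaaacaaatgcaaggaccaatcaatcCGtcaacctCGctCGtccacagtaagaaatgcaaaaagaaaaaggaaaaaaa
Hoxa10: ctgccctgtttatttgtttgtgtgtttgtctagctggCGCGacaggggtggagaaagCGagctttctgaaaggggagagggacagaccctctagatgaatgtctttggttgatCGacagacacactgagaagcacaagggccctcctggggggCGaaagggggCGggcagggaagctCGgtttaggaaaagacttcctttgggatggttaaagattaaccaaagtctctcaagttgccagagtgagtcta
Hoxa13: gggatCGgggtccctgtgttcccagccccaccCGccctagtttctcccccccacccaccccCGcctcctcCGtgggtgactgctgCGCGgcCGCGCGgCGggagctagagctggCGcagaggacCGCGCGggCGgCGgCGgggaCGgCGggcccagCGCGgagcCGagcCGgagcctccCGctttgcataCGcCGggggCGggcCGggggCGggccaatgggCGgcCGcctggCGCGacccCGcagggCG
These stretches hold 6, 7 and 35 CG dinucleotides. The upstream bases of the inner Hoxa10 start, not shown, hold 20, so the Hoxa10 value depends on the start taken. In the full window of 300 bases, which adds the 50 bases after the start, Hoxa13 was 81.0% G and C, above 99.3% of all 32851 windows in the RefSeq table. Hoxd8 was at 46.7%, above 27.3% of all windows, and Hoxa10 at 54.3% (57.3% at its inner start). The median was 52.7% over all windows and 57.7% over the Hox windows. The full windows of Hoxd8, Hoxa10 and Hoxa13 held 6, 12 and 45 CG dinucleotides, against a median of 7 over all windows and 14.5 over the Hox windows, and the window of the inner Hoxa10 start held 21. The core of the CTCF motif, searched on both strands as CC, then 3 bases of any kind, AGG, 1 base of any kind and GGC, was in none of these 3 windows and in 3.43% of all windows. Of the 24 Hox windows (22 genes, 20 of them among the 37) only that of Hoxa11, the gene between Hoxa10 and Hoxa13, held a match. It begins 185 bases before the Hoxa11 start and stands in capitals in chr6:52245960-52246019 (GRCm38.p6, minus strand).
Hoxa11: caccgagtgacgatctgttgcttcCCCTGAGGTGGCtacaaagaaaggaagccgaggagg
A match describes letters only and the windows cover little of each cluster. TATAAA, the TATA box, was in 4 of the 24 Hox windows and in 13.6% of all windows. Those 4 were the windows of Hoxb8, Hoxd4, Hoxd13 and the inner start of Hoxa10. TGATNNAT, a site bound by Hox proteins together with Pbx, was in the windows of Hoxa2, Hoxb1, Hoxb8 and Hoxd11 and in 8.85% of all windows. None of those 4 genes reached the level needed for testing, which was also so for 19 of all 37 genes. A link between the site and the level was not tested.

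Which Hox genes were on was uneven within and between clusters. Of the 37 genes, 18 had a mean of 1 RPKM or more over the 4 libraries and were tested, 10 lay below that level but above 0, and 9 were at 0 in every library. The 9 were Hoxb1, Hoxd1, Hoxc11, Hoxc12, Hoxc13, Hoxd9, Hoxd10, Hoxd11 and Hoxd13. Hoxc8 at 1.04 RPKM was the tested gene nearest to the limit and Hoxa2 at 0.787 RPKM the untested one. The tested Hox genes were mostly of low abundance, with a median level of 6.15 RPKM against 17.7 RPKM over all genes tested.

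**Figure D1:**
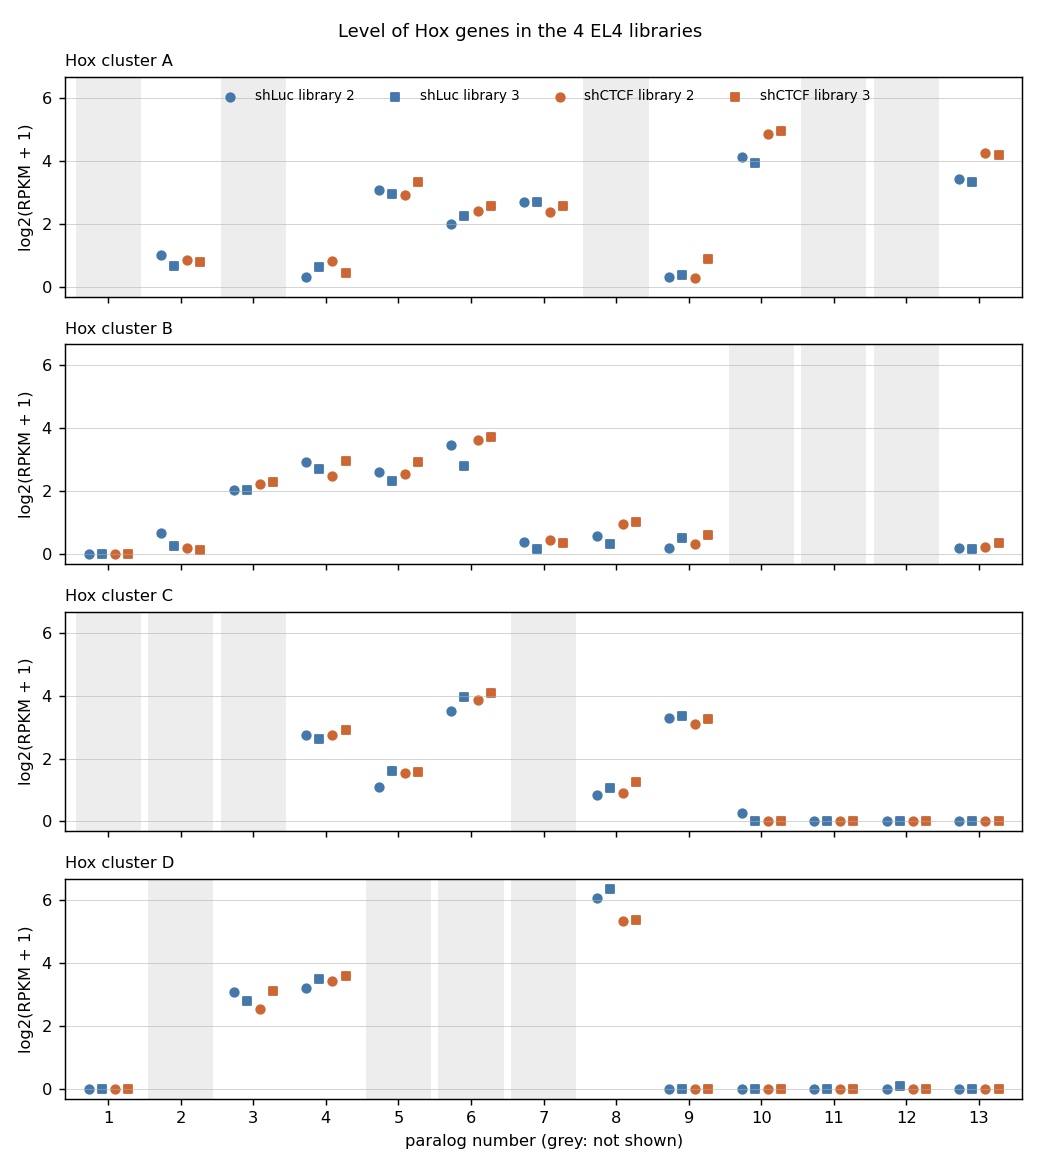
Level of the Hox genes reported here as log2(RPKM + 1) against its paralog number, 1 panel per cluster, with 1 point per library (blue shLuc, orange shCTCF, circles library 2, squares library 3). Hoxd8 stands highest, the genes from Hoxd9 and Hoxc10 onwards lie at or near 0, and the shLuc and shCTCF points separate most at Hoxa10, Hoxa13 and Hoxd8.

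Cluster D showed the sharpest step. Hoxd8, which is active in the embryonic trunk, stood at 65.4 and 80.3 RPKM in the shLuc libraries, above 84.2% of all genes tested by its mean over the 4 libraries. Hoxd9, its neighbour in the cluster, was at 0 RPKM in all 4 libraries, as were Hoxd10, Hoxd11 and Hoxd13, and Hoxd12 had 1 read in shLuc library 3. On the other side of Hoxd8, Hoxd3 and Hoxd4, genes of the hindbrain and upper neck, lay between 4.76 and 11.0 RPKM, and Hoxd1 was at 0. The highest Hox level thus stood next to a run of 5 genes with no more than 1 read in any library, in shLuc and shCTCF libraries alike.

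Cluster C had a similar border 1 gene further. Hoxc9, a gene of the thoracic spinal cord, was at 8.77 and 9.30 RPKM with shLuc and at 7.49 and 8.47 RPKM with shCTCF. Hoxc10 beside it had 2 reads in shLuc library 2 and none in the other libraries, and Hoxc11, Hoxc12 and Hoxc13 were at 0. Within the active stretch the levels were not even, since Hoxc6 reached 10.3 to 15.9 RPKM while Hoxc8 between Hoxc6 and Hoxc9 stayed at 0.806 to 1.39 RPKM. Hoxc4, which is known from lymphocytes, lay at 5.18 to 6.56 RPKM, and Hoxc5 at 1.12 to 2.03 RPKM.

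In cluster B a block from Hoxb3 to Hoxb6 was on. Hoxb3 lay at 3.07 to 3.89 RPKM, Hoxb4, known for expanding blood stem cells, at 4.57 to 6.76 RPKM, and Hoxb5, a marker of blood stem cells, at 3.96 to 6.67 RPKM. Hoxb6 lay at 5.92 to 12.1 RPKM. On both sides of that block the means were below 1 RPKM. Hoxb2 lay between 0.106 and 0.586 RPKM, Hoxb7 between 0.128 and 0.363 RPKM and Hoxb8 between 0.247 and 1.05 RPKM. Hoxb9 lay between 0.141 and 0.514 RPKM, Hoxb13 had 1 or 2 reads per library, and Hoxb1 was at 0.

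Hoxa10 and Hoxa13 of cluster A were the only genes numbered 10 or above among the 37 that reached 1 RPKM. Beside them, Hoxa9, a gene well known from leukaemia, had 3 and 4 reads with shLuc and 2 and 11 reads with shCTCF (0.203 to 0.839 RPKM). The joined row of Hoxa11 and its antisense transcript stood at 30.1 and 25.4 RPKM with shLuc and 27.6 and 30.1 RPKM with shCTCF. The sources used here do not give whether counting used strand, so sense and antisense reads cannot be told apart in that row. Towards the head end, Hoxa5, Hoxa7 and Hoxa6 lay between 3.00 and 9.14 RPKM, and Hoxa2 and Hoxa4 at or below 1.02 RPKM in every library.

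Set in order by shLuc level, Hoxd8 (65.4 to 80.3 RPKM) stood apart from all others. Hoxa10 at 14.3 to 16.4 RPKM came next and overlapped Hoxc6 at 10.3 to 14.4 RPKM. Hoxa13, Hoxc9, Hoxd4 and Hoxb6 followed, with overlapping ranges between 5.92 and 10.3 RPKM. The joined Hoxa11 row, which is not among the 37, stood between Hoxd8 and Hoxa10 at 30.1 and 25.4 RPKM with shLuc. With shCTCF, Hoxd8 and Hoxa10 kept the first places and Hoxa13 stood above Hoxc6. Hoxd8 lay at 39.6 to 40.2 RPKM, Hoxa10 at 28.0 to 29.9 RPKM, Hoxa13 at 17.2 to 17.9 RPKM and Hoxc6 at 13.4 to 15.9 RPKM. None of these ranges overlapped its neighbour's, but the joined Hoxa11 row, at 27.6 and 30.1 RPKM with shCTCF, spanned that of Hoxa10.

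Hoxa10, a regulator of the uterus, the limb and blood progenitors, stood at 16.4 and 14.3 RPKM in shLuc libraries 2 and 3 and at 28.0 and 29.9 RPKM in shCTCF libraries 2 and 3. Both shCTCF libraries were above both shLuc libraries. The means were 15.3 ± 1.48 and 28.9 ± 1.32 RPKM (SD, n = 2), a rise of 0.88 on the log2(RPKM + 1) scale (SE 0.10, limma adjusted p = 0.0091). Its row joins 2 transcripts, so whole reads could not be recovered for it.

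Hoxa13, a gene of the hand, foot and lower urogenital tract, stood at 9.77 and 9.10 RPKM with shLuc and at 17.9 and 17.2 RPKM with shCTCF. These values rest on 67 and 73 reads with shLuc and 102 and 130 reads with shCTCF over a model of 1308 bases. The groups did not overlap, and the gap between them was larger than the SD within either group (9.44 ± 0.477 against 17.6 ± 0.503 RPKM, n = 2). The rise was 0.83 (SE 0.10, limma adjusted p = 0.0094).

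Hoxd8 fell from 65.4 and 80.3 RPKM to 39.6 and 40.2 RPKM, with 488 and 701 reads against 245 and 330 over a model of 1424 bases. Its shLuc libraries differed more from each other than its shCTCF libraries (72.8 ± 10.5 against 39.9 ± 0.418 RPKM, n = 2), yet the groups did not overlap. The log2 change was -0.85 (SE 0.11, limma adjusted p = 0.011). With 1 shLuc library left out, the spread comes from the shCTCF libraries alone, and neither these genes (limma adjusted p of 0.15 to 0.16) nor Ctcf (0.15) passed, at log2 changes of 0.79 to 0.97 for Hoxa10, 0.79 to 0.88 for Hoxa13 and -0.99 to -0.70 for Hoxd8. Without a filter on low values the log2 changes were the same (0.88, 0.83 and -0.85) at adjusted p of 0.066, 0.066 and 0.068, and without shCTCF library 2 Hoxa13 gave 0.81 at 0.051.

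**Figure D2:**
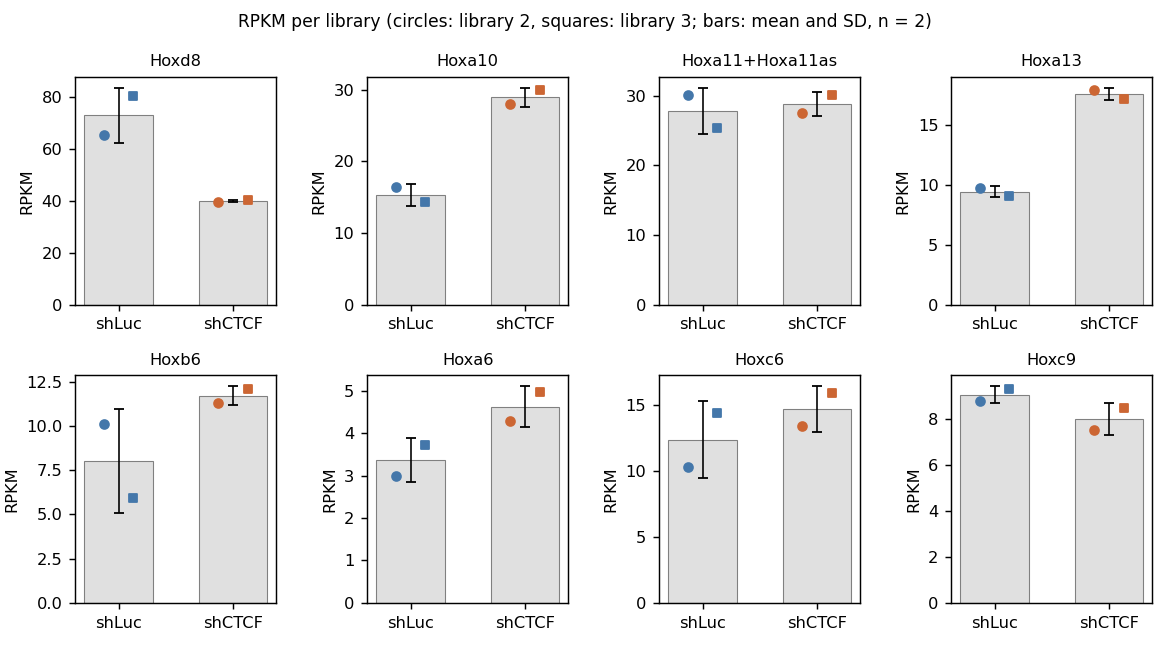
RPKM in each library for 8 Hox rows, with bars for the mean and error bars for the SD (n = 2, circles library 2, squares library 3). Hoxd8 is lower and Hoxa10 and Hoxa13 are higher with shCTCF without overlap. Hoxb6 and Hoxa6 (higher) and Hoxc9 (lower), which were not called, do not overlap either. The joined Hoxa11 row and Hoxc6 overlap between the groups. Of all genes tested, 44.0% do not overlap.

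By reads recovered from the RPKM steps, which gave whole numbers for Hoxa13 and Hoxd8, limma-voom gave 0.89 (SE 0.16, adjusted p = 0.00081) for Hoxa13 and -0.86 (SE 0.11, adjusted p = 3.9e-06) for Hoxd8. That fit called 4.62% of 7484 genes, and it called no other Hox gene among the 16 it held. The authors' deposited table of changed genes lists the same 3 Hox genes and no other of the 37. The authors' deposited table gives a log2 fold change of 0.87 for Hoxa10 (FDR 1.1e-10), 0.89 for Hoxa13 (FDR 2.6e-05) and -0.88 for Hoxd8 (FDR 5.8e-11). It lists 0.967% of all rows as higher and 0.999% as lower (1.97% in all), rests on the same 4 libraries and is not independent of the values above.

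Between Hoxa10 and Hoxa13 in the cluster, the joined row of Hoxa11 gave a log2 change of 0.06 (SE 0.11, adjusted p = 0.88, limma). The difference between its change and theirs was not tested. Further towards the head, Hoxa7 was at 5.48 and 5.43 RPKM with shLuc and 4.25 and 4.98 RPKM with shCTCF, without overlap but short of the test (-0.21, adjusted p = 0.57). Hoxa6 was at 3.00 and 3.73 RPKM against 4.28 and 4.96 RPKM, from 11 to 20 reads per library (0.37, unadjusted p = 0.046, adjusted p = 0.34 in limma). The joined row of Hoxa3 was at 2.05 and 3.56 RPKM against 4.27 and 5.24 RPKM (0.62, SE 0.21, adjusted p = 0.23). Hoxa5, known from lung development, gave 0.12.

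In cluster B the largest difference was that of Hoxb6, at 10.1 and 5.92 RPKM with shLuc and 11.3 and 12.1 RPKM with shCTCF. The shLuc libraries differed from each other by more than the lower shCTCF library differed from the higher shLuc one, and limma gave a log2 change of 0.53 (SE 0.20, unadjusted p = 0.027, adjusted p = 0.27). Hoxb5 gave 0.28, Hoxb3 0.23 and Hoxb4 -0.09. In cluster C the 5 tested genes lay between -0.16 (Hoxc9) and 0.24 (Hoxc6), and in cluster D Hoxd3 gave -0.12 and Hoxd4 0.15, on either side of 0 and next to Hoxd8 at -0.85.

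Among the 15 tested genes that were not called, 11 log2 changes were positive and 4 negative, from -0.21 to 0.53, with adjusted p of 0.27 to 0.89 in limma. Together with the 3 called genes, 13 of 18 were positive (72.2%), against 53.3% of all genes tested, and 5 of 18 had an unadjusted p below 0.05, against 14.1% of all. The shLuc and shCTCF libraries were apart without overlap in 10 of 18 (55.6%), 7 with shCTCF higher and 3 lower, against 44.0% of all genes tested (24.1% higher, 19.9% lower). That share is near the background.

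**Figure D3:**
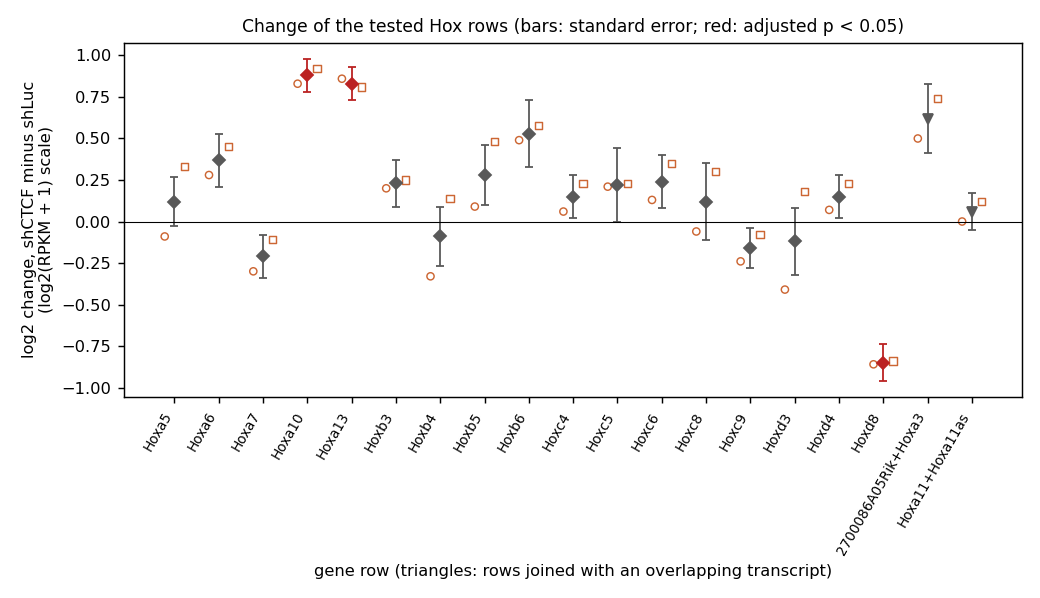
Log2 change (shCTCF minus shLuc, log2(RPKM + 1) scale) of the tested Hox genes reported here and the 2 joined rows, with bars for the standard error; open circles and squares show shCTCF libraries 2 and 3 against the shLuc mean. Hoxa10 (0.88), Hoxa13 (0.83) and Hoxd8 (-0.85), in red, passed an adjusted p of 0.05.

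Of the 10 genes with a level between 0 and the limit for testing, Hoxa2, Hoxb8 and Hoxa4 had the highest means. Hoxa2 was at 1.02 and 0.582 RPKM with shLuc and 0.821 and 0.722 RPKM with shCTCF. Hoxb8, a gene known from myeloid progenitors, had 7 and 4 reads with shLuc and 11 and 16 reads with shCTCF (0.505, 0.247, 0.957 and 1.05 RPKM), which did not overlap but were not tested. Hoxa4 had 2 to 5 reads per library. The other 7 had at most 11 reads in any library.

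Paralog groups 8, 10 and 13 were each carried by a single gene. In group 8 the sum was 66.7 and 81.6 RPKM with shLuc and 41.4 and 42.6 RPKM with shCTCF, nearly all of it Hoxd8. In group 10 it was 16.6 and 14.3 RPKM against 28.0 and 29.9 RPKM, nearly all of it Hoxa10, and in group 13 it was 9.92 and 9.22 RPKM against 18.1 and 17.5 RPKM, nearly all of it Hoxa13. So for these 3 numbers the paralogs in other clusters added little in either group. This was not particular to the groups of the called genes. Group 7 summed to 5.78 and 5.56 RPKM with shLuc against 4.61 and 5.25 RPKM with shCTCF, most of it Hoxa7. Group 9 summed to 9.16 and 10.0 RPKM against 7.95 and 9.82 RPKM, most of it Hoxc9. Groups 3, 4, 5 and 6 were shared between clusters. Group 3 summed to 10.6 and 9.03 RPKM with shLuc against 8.47 and 11.5 RPKM with shCTCF, and Hoxd3 and Hoxb3 both contributed. Hoxa3 is not in that sum, and its joined row stood at 2.05 and 3.56 RPKM with shLuc and 4.27 and 5.24 RPKM with shCTCF. Group 4 summed to 20.7 and 21.5 RPKM against 20.7 and 24.6 RPKM, group 5 to 13.7 and 12.8 RPKM against 13.4 and 17.8 RPKM, and group 6 to 23.4 and 24.1 RPKM against 29.0 and 32.9 RPKM.

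Summed over all 37 genes, Hox RNA stood at 181.5 and 192.5 RPKM with shLuc and 176.4 and 197.2 RPKM with shCTCF, a ratio of means of 0.999 with overlapping libraries. The make-up of that sum differed. Cluster A went from 47.0 and 44.3 RPKM to 66.6 and 72.5 RPKM, a ratio of 1.52 (1.42 to 1.64 over the library pairs). Within cluster A the sum of Hoxa9, Hoxa10 and Hoxa13 went from 26.4 and 23.6 RPKM to 46.2 and 47.9 RPKM (ratio 1.88). That sum holds both called genes of the cluster and so restates their rise. The joined rows of Hoxa3 and Hoxa11 are in none of these sums. That of Hoxa11, which lies between Hoxa10 and Hoxa13, stood at 30.1 and 25.4 RPKM with shLuc and 27.6 and 30.1 RPKM with shCTCF.

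Cluster D went from 81.1 and 96.5 RPKM to 54.0 and 58.8 RPKM (ratio 0.635, 0.56 to 0.725 over the pairs), and without Hoxd8 it was at 15.7 and 16.2 RPKM and 14.5 and 18.6 RPKM. Hoxd8 alone was 36.0% and 41.7% of the Hox sum with shLuc and 22.4% and 20.4% with shCTCF. Clusters B and C had sums that overlapped between the groups, at 26.5 and 19.7 RPKM against 26.3 and 31.6 RPKM for B and 26.9 and 32.0 RPKM against 29.4 and 34.3 RPKM for C. These sums are given as a description with no test.

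**Figure D4:**
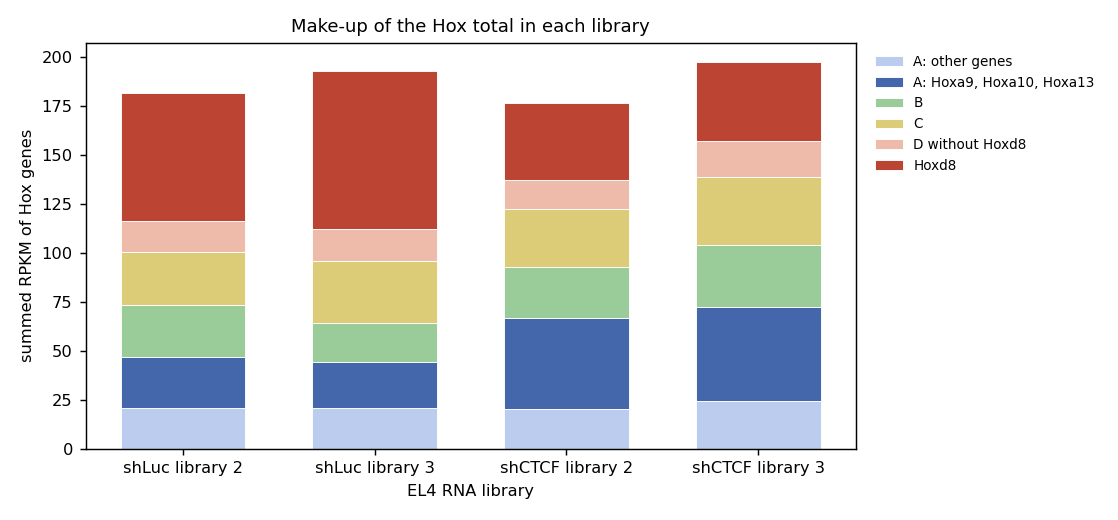
Summed RPKM of the 37 Hox genes in each of the 4 EL4 libraries, stacked by cluster, without the joined rows of Hoxa3 and Hoxa11. Hoxd8 and the sum of Hoxa9, Hoxa10 and Hoxa13 are segments of their own. The bars are of like height (176.4 to 197.2 RPKM), while the Hoxd8 segment is smaller and the segment of Hoxa9, Hoxa10 and Hoxa13 larger in both shCTCF libraries.

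Genes flanking the clusters were read in RefSeq order, taking the nearest 2 tested genes on each side of each cluster. None of these 16 was called. An unadjusted p below 0.05 was found for 4 of them, against 14.1% of all genes tested, and limma-voom on recovered reads called 1 of the 10 it held, against 4.62% of all. Their log2 changes ran from -0.25 to 0.39 with a median of 0.13, and 13 were positive, against 53.3% of all genes tested. Beyond Hoxa13, Hibadh, a mitochondrial enzyme of valine breakdown, stood at 60.4 and 59.8 RPKM against 74.4 and 73.7 RPKM (0.30, SE 0.08, adjusted p = 0.12, limma), and it was the gene that limma-voom called. Tax1bp1 next to it gave 0.19, and Skap2 and Snx10 at the other end of the cluster gave 0.12 and 0.15.

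Around cluster B, Snx11, a sorting nexin, gave 0.39 (adjusted p = 0.14, limma), Atp5g1 0.15, Ube2z 0.06 and Skap1, an adaptor of T cell receptor signalling, -0.25. Around cluster C, Smug1, a DNA repair glycosylase, gave 0.30, Calcoco1 0.17, Cbx5 0.03 and Atp5g2 -0.04. Around cluster D, where Hoxd8 gave -0.85, Atp5g3 gave 0.14, the joined row of Hnrnpa3 0.11, Mtx2 0.04 and Lnpk, named Lnp in the table, 0.00. In size, the Hoxd8 value exceeded that of each of the 4 flanking genes of its cluster. So did those of Hoxa10 and Hoxa13 for cluster A. These 3 genes are compared because they were called, a choice that favours large values. Differences between genes were not tested.

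**Figure D5:**
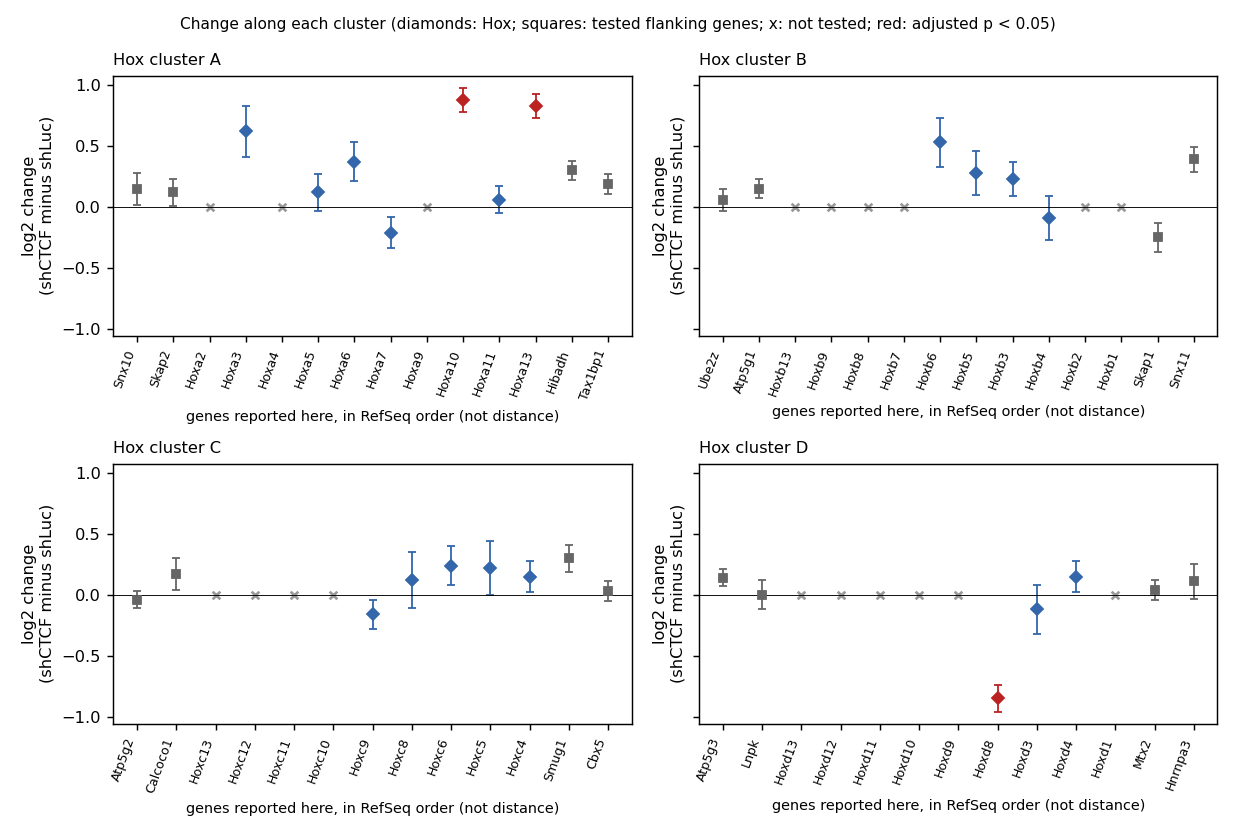
Log2 change (shCTCF minus shLuc) with its standard error along each cluster, for the genes reported here in RefSeq order; diamonds are Hox rows, squares the tested flanking genes, x genes below the level for testing, and red marks an adjusted p below 0.05. Hoxa10 and Hoxa13 lie on both sides of Hoxa11 (0.06). By that order of annotated starts Hoxd8 stands between Hoxd9, not tested, and Hoxd3 (-0.12), whereas by number Hoxd4 (0.15) would follow Hoxd8.

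Genes that work with or on the Hox clusters were described from 5 lists, and none of their tested members was called. Over all genes tested by limma 1.29% were called and 14.1% had an unadjusted p below 0.05, and limma-voom called 4.62% of those it held. TALE homeodomain cofactors, which bind DNA together with Hox proteins, had 5 tested genes with a median log2 change of 0.07. Meis1 and Meis2 were at 0 in every library, while Pbx2, Pbx3, Pbx4 and Meis3 were tested. Pknox1 (16.1, 16.8, 15.3 and 14.5 RPKM in shLuc libraries 2 and 3 and shCTCF libraries 2 and 3) and Pbx2 (11.0, 9.78, 14.0 and 13.7 RPKM) had the highest levels. Meis3 gave 0.55 and Pbx2 0.39 (adjusted p = 0.14 and 0.15, limma), these 2 had an unadjusted p below 0.05, and limma-voom called Pbx2 alone of the 4 it held.

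Of the Polycomb repressors 32 were tested, with a median of 0.00 and a range of -0.48 (Pcgf2) to 0.46 (Ring1). Of the 32, 5 had an unadjusted limma p below 0.05, near the 14.1% of all genes tested. Ring1, a ubiquitin ligase subunit, stood at 14.6 and 12.0 RPKM against 18.3 and 18.9 RPKM (adjusted p = 0.11, limma), and Eed, a subunit of the H3K27 methyltransferase complex, at 19.0 and 19.3 RPKM against 24.6 and 23.8 RPKM (0.32, adjusted p = 0.15). Suz12 of the same complex stood at 92.6 and 103.7 RPKM against 94.4 and 92.6 RPKM, and only the joined row of Rbbp7 was higher (169.0 to 205.4 RPKM over the 4 libraries). limma-voom called none of the 19 Polycomb genes it held. The 21 tested Trithorax and MLL genes had a median of -0.01 and a range of -0.19 to 0.22, with none at an unadjusted p below 0.05 and none of 15 called by limma-voom. Mll1, the founding member, stood at 19.2 and 22.1 RPKM against 24.2 and 24.3 RPKM (0.22, adjusted p = 0.36), and Hcfc1 (88.6 to 100.8 RPKM) and Ash2l (64.4 to 73.3 RPKM) had the highest levels.

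Upstream regulators (retinoic acid receptors, Cdx genes and others) had 6 tested genes with a median of 0.22, and 7 at 0 in every library. Of the 6 tested, 3 had an unadjusted limma p below 0.05, against 14.1% of all genes tested. Rarg, a retinoic acid receptor, stood at 4.41 and 2.91 RPKM against 6.51 and 6.22 RPKM (0.68, adjusted p = 0.13, limma), and Gdf11, a signal that sets the trunk-to-tail transition, at 8.43 and 6.93 RPKM against 11.3 and 10.8 RPKM (0.48, adjusted p = 0.13). Rara and Rxrb, which had the highest levels of that list, both gave -0.09, and limma-voom called none of 3. The genes within and at the ends of the clusters had 14 tested members with a median of 0.11. Most of the 14 are flanking genes already given above. The 4 with an unadjusted limma p below 0.05 (Hibadh, Tax1bp1, Smug1 and Snx11) are the same 4 as there, so they are no separate result. limma-voom called 1 of the 8 it held (Hibadh, already given above), against 4.62% of all genes it held. The highest levels were those of Hnrnpa2b1 (645.0 to 854.6 RPKM) and the joined row of Hnrnpa1 (148.9 to 183.8 RPKM). With no filter on low values, Mir10a in cluster B was the 1 gene called in that list, on 0 and 0 reads with shLuc and 1 and 1 reads with shCTCF.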

How the data were processed

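Poly(A) RNA of EL4 cells was measured in 2 shLuc and 2 shCTCF libraries. Reads were aligned with Bowtie2 to mm9, per the submitters' processing notes. For the counter, its strand setting, the annotation release and the tool behind the authors' test, the sources used here give no name. The authors deposited RPKM for 22119 rows (21844 symbols), and genes that overlap can be joined in a row. A deposited list of changed genes adds log2 fold changes, log2 mean CPM, p-values and FDR, per the file headers. Library numbers are 2 and 3 in the full table but 1 and 2 for the same values in that list. Libraries therefore served as replicates of their hairpin, and the text names them as the full table does.

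Each symbol was represented by its row of highest mean RPKM. Genes with a mean of 1 RPKM or more (9898) were tested by limma (version 3.58.1, R 4.3.3) on log2(RPKM + 1), using lmFit and eBayes with a trend, a scale that understates changes of low genes. P-values were adjusted by Benjamini-Hochberg over all of them, with a threshold of 0.05. Checked on simulated data, the test recovered most 2-fold changes, and false calls were a larger share of its calls than the threshold. The adjusted p-values given for Hoxa10, Hoxa13 and Hoxd8 may therefore be too small. That simulation gave every gene the same spread between libraries, set in advance and not estimated from these libraries. It used only rows with whole reads, so it did not cover rows like that of Hoxa10. RPKM values were whole multiples of a step in 98.2% of 7035 single-transcript rows with a mean of 1 or more, and in 20.7% of 2905 rows that join transcripts. The multiples are the reads quoted, with a relative tolerance of 2e-11, and would be too low where all 4 read numbers share a factor. The shLuc libraries held 4335619 and 5194445 recovered reads, and the shCTCF libraries 3721781 and 5450547.

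Named genes were Ctcf, every Hox gene with a mean of 1 RPKM or more, the highest 3 below it (the others below it are given to account for every gene), the nearest 2 tested genes on each side of each cluster, and in each list those past the threshold, up to 4 by smallest p, and the 2 with the highest level. Some genes of the lists and clusters are not reported here by name, though they enter the counts and sums. Mir10a was chosen after its values were seen. The members and lists were chosen with earlier results of these data known. Alternatives were other pseudocounts, filters, scalings, a replicate block, limma-voom on recovered reads, summed rows and leaving out each library. Chromatin domain lists were not used, since gene positions on mm9 were not used here.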

Additional observations from a re-analysis of the deposited data

How the results depend on the processing

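Leaving out 1 of 2 libraries leaves a lone sample that is assumed to vary like the other group, a setting in which few of all genes can pass. Over 13 alternative settings, 210 of 227 log2 changes of single Hox genes kept their direction and side of the threshold, 10 lost the call and 7 reversed. Without a filter on low values 0 Hox genes were called higher and 0 lower, and 24 of all genes were called in place of 128. limma-voom on recovered reads called 1 Hox gene higher, since Hoxa10 could not be recovered as reads, and 346 of all genes. Leaving out 1 library gave 0 to 2 Hox genes called higher, 0 to 1 lower and 0 to 78 of all genes (0 without shLuc library 2, 2 without shLuc library 3, 78 without shCTCF library 2, 58 without shCTCF library 3). Ctcf then ranged from -0.92 to -0.86, and missed the threshold with 1 shLuc library left out, whichever it was (adjusted p = 0.15). Hoxa10 passed in 9 of its 12 alternatives (0.79 to 0.97, adjusted p of 0.00087 to 0.15), Hoxa13 in 9 of 13 (0.79 to 0.89, 0.00081 to 0.16) and Hoxd8 in 10 of 13 (-0.99 to -0.70, 3.9e-06 to 0.15). The reversals were Hoxa5 (-0.09) and Hoxc8 (-0.06) without shCTCF library 3, Hoxb4 (0.01), Hoxc5 (-0.04) and Hoxd3 (0.03) without shLuc library 2, and Hoxb4 (0.14) and Hoxd3 (0.18) without shCTCF library 2. Leaving out 1 library, Hoxa5 ranged from -0.09 to 0.33, Hoxb4 from -0.33 to 0.14, Hoxc5 from -0.04 to 0.48, Hoxc8 from -0.06 to 0.30 and Hoxd3 from -0.41 to 0.18. None of these 5 genes was called in any setting, and the cause was not tested. The median Hox change ranged from 0.07 to 0.26. Without the filter 1 gene of the cluster-end list was called, and the other lists kept 0 calls. Over library pairs the ratio of sums ranged from 1.42 to 1.64 for cluster A, 0.993 to 1.61 for B, 0.918 to 1.28 for C and 0.56 to 0.725 for D. The sources do not say that equal library numbers pair the samples. Deviations of same-numbered libraries from their group means correlated at 0.165 over 9898 genes, with only 2 pairs. With the replicate block 507 genes were called, Hoxa10, Hoxa13 and Hoxd8 among them (adjusted p = 0.00087, 0.0015 and 0.00054, limma), and no other tested Hox gene. Depth limits what can be read from genes below 1 RPKM, most of which rest on fewer than 12 reads.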
